A study of Mus musculus with 9 samples.

Results

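The 10 genes described here encode proteins that hold cells together or mark their surface: Pecam1, Icam1, Jam2 and F11r of the immunoglobulin superfamily, Epcam, the cadherins Cdh1, Cdh2 and Cdh3, and the claudins Cldn6 and Cldn4. They were listed by name as adhesion genes, with earlier results of these data known, and matched by symbol to 10 of 52636 Ensembl gene IDs. RNA-seq counts came from 9 libraries of mouse embryonic stem cells (ESCs), 3 from each of 3 lines. The line titled NanogKO:Esrrb:Nanog (44JN), here Esrrb+Nanog, and the line titled NanogKO:Esrrb (44J), here Esrrb, carry added genes on a background without Nanog, and the Nanog-null line (NanogKO, 44C6) carries none. The labels give the genotype N{delta} for the Nanog-null line and the same genotype, N{delta}:cE:iN, for both others, and do not give the promoter that drives an added gene. Cells of every line were kept in serum with leukaemia inhibitory factor, had no treatment, and were sorted by flow cytometry as PECAM positive and PDGFRA negative before RNA was taken. The sort thus used the protein of Pecam1, so the presence of Pecam1 in the libraries is not a finding.

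In ESCs, E-cadherin, the product of Cdh1, joins neighbouring cells through its extracellular repeats and is tied to actin by catenins. Claudins, JAM proteins and the scaffolds beneath them build tight junctions, and EpCAM is a membrane glycoprotein of epithelia that is also abundant on pluripotent cells. PECAM-1 is best known from endothelium and is in wide use as a surface marker of undifferentiated mouse ESCs.

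Nanog and Esrrb were highest in the lines whose titles name them. Nanog, a homeodomain factor of pluripotency, was at 221, 289.5 and 333 CPM (counts scaled to library size, here with TMM factors) in Esrrb+Nanog libraries, 29.7, 35.1 and 30.4 CPM in Esrrb libraries and 14.3, 14.3 and 16.02 CPM in Nanog-null libraries. Which part of Nanog was deleted is not stated, so the reads left in the Nanog-null line are no check of the deletion. Esrrb, an orphan nuclear receptor, was at 1113, 1151 and 1056 CPM in Esrrb+Nanog libraries, 769, 949 and 692 CPM in Esrrb libraries and 273, 253 and 303 CPM in Nanog-null libraries. Pdgfra, the gene of the sorted-out receptor, did not exceed 3.86 CPM in Esrrb+Nanog, 14.1 CPM in Esrrb and 4.43 CPM in Nanog-null libraries. Library totals ran from 21808120 to 32496267 counts. Summed over 8 ESC markers, all of them tested, levels were 3522 to 3757 CPM in Esrrb+Nanog, 3883 to 3913 CPM in Esrrb and 2873 to 3086 CPM in Nanog-null libraries. The single markers did not all follow this sum. Of the 8, 4 were higher and 1 lower in Esrrb over Nanog-null cells, and 3 higher and 3 lower in Esrrb+Nanog over Nanog-null cells. In Esrrb+Nanog over Esrrb cells none was higher and 2 were lower. Endothelial markers other than Pecam1 summed to 51.4 to 57.8 CPM in Esrrb+Nanog, 56.3 to 62.2 CPM in Esrrb and 50.1 to 56.5 CPM in Nanog-null libraries. These near-equal sums hold genes that moved in opposite directions: of 7 tested, 4 were higher and 1 lower in Esrrb over Nanog-null cells, 4 higher and 2 lower in Esrrb+Nanog over Nanog-null cells, and none higher and 2 lower in Esrrb+Nanog over Esrrb cells. Of all tested genes, 24.2% were called in each direction in the first of these comparisons and 27.2% in each direction in the second. In the third, 5.43% of all tested genes were higher and 7.75% lower. Kdr averaged 12.1 CPM in Esrrb+Nanog, 13.2 CPM in Esrrb and 1.45 CPM in Nanog-null libraries, and Tek averaged 10.4 CPM in Esrrb+Nanog, 17.2 CPM in Esrrb and 35.2 CPM in Nanog-null libraries. Cdh5 was at no more than 0.922 CPM in any library, and Emcn had 0 counts in all Esrrb+Nanog and Esrrb libraries. With 1 line per group, effects of an added gene and of the line itself cannot be told apart. Nothing in the labels says that replicates came from separate cultures, so each p-value reflects library-to-library spread that may be technical.

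The adhesion genes split in the Esrrb line. A change in one line over another compares the cells named first with those named second. All 10 passed the low-count filter and all 10 were called against the Nanog-null line (edgeR quasi-likelihood test, Benjamini-Hochberg adjusted over 16198 genes, threshold 0.05), where 48.5% of all tested genes were called. Of the 10, 2 were higher (Jam2 and Icam1), against 24.2% of all genes, and 8 were lower (Pecam1, F11r, Epcam, Cdh1, Cdh2, Cdh3, Cldn6 and Cldn4), also against 24.2%. Their median log2 fold change was -0.842, beside 0.0063 over all tested genes. Between the Esrrb+Nanog line and the Esrrb line, 2 of the 10 were called, against 13.2% of all genes: Cdh3 was higher (5.43% of all genes were) and Cdh1 was lower (7.75% of all genes were). With library totals in place of TMM factors, 1386 of all genes were higher and 941 lower there, in place of 880 and 1255. The median log2 fold change of the 10 there was 0.111, beside -0.0051 over all genes. Without Esrrb replicate 2, 5 were called, with Icam1 added as higher and Pecam1 and Epcam as lower. Between the Esrrb+Nanog line and the Nanog-null line, 9 of 10 were called, against 54.4% of all genes, 2 higher and 7 lower, beside 27.2% of all genes in each direction. That median was -0.871, beside 0.0019. The comparisons share libraries, so their values are not independent of each other. In these bulk samples, fewer cells of a type and less RNA per cell cannot be told apart.

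**Figure D1:**
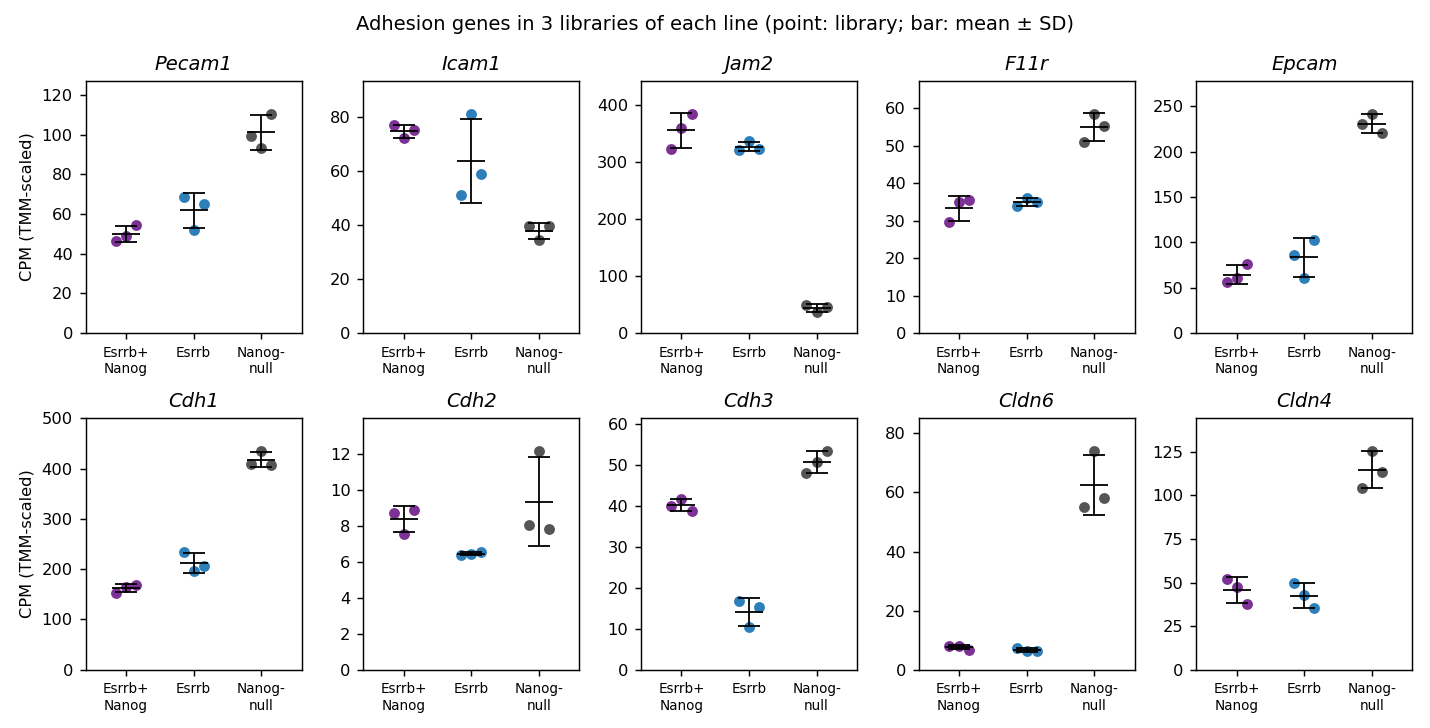
CPM (TMM-scaled, linear axes from 0) of the 10 adhesion genes in each library of the Esrrb+Nanog, Esrrb and Nanog-null lines, with bars for the mean ± SD of 3 libraries. Jam2 lies at 321 CPM or more in all 6 libraries with added genes and at most 49.0 CPM in the Nanog-null libraries, while Cldn6, Epcam and Cdh1 are highest in the Nanog-null libraries and Cdh3 dips in the Esrrb line.

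Pecam1 (ENSMUSG00000020717, mm10 chr11:106654217-106750628, minus strand), an immunoglobulin-domain receptor that binds itself on neighbouring cells, was lower in both lines with added genes. It was at 46.4, 48.7 and 54.2 CPM in Esrrb+Nanog libraries, 68.6, 52.0 and 65.0 CPM in Esrrb libraries and 99.3, 93.5 and 110.5 CPM in Nanog-null libraries. All Nanog-null libraries lay above all others, while Esrrb replicate 2 fell within the range of the Esrrb+Nanog libraries. The log2 fold change of Esrrb over Nanog-null cells was -0.71 ± 0.10 (SE, adjusted p = 0.000176), and that of Esrrb+Nanog over Nanog-null cells was -1.02 ± 0.10 (adjusted p = 9.38e-06). Every library came from cells sorted as PECAM positive, and how that sort bears on these differences was not tested. Between the Esrrb+Nanog line and the Esrrb line, Pecam1 was not called (-0.31 ± 0.10, adjusted p = 0.0728), and it was called without Esrrb replicate 2 (-0.42, adjusted p = 0.0086), with DESeq2 (adjusted p = 0.0484) and with no low-count filter (adjusted p = 0.00541).

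Icam1 (ENSMUSG00000037405, chr9:21015985-21028817, plus strand), whose product is a ligand of leukocyte integrins, went the other way from Pecam1. It was at 77.0, 72.2 and 75.3 CPM in Esrrb+Nanog libraries, 51.0, 81.3 and 59.0 CPM in Esrrb libraries and 39.7, 34.5 and 39.7 CPM in Nanog-null libraries. The Nanog-null libraries were all below the others, and Esrrb replicate 2 was the highest of all 9. Icam1 rose by a log2 fold change of 0.75 ± 0.14 in Esrrb over Nanog-null cells (adjusted p = 0.000873) and by 0.98 ± 0.14 in Esrrb+Nanog over Nanog-null cells (adjusted p = 0.000104). For Esrrb+Nanog over Esrrb cells the value was 0.23 ± 0.13 (adjusted p = 0.302), and 0.44 without Esrrb replicate 2 (adjusted p = 0.00623). An antisense gene, Gm47079, shares 511 exon bases with Icam1. It had 19 counts in all 9 libraries, against 14564 for Icam1, and whether counting used the strand is not given in the sources used here.

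Among the junctional adhesion molecules, Jam2 and F11r (which encodes JAM-A) moved in opposite directions. Jam2 (ENSMUSG00000053062, chr16:84774123-84825928, plus strand), whose product pairs with itself and with JAM-C across cell contacts, was at 322, 359 and 384 CPM in Esrrb+Nanog libraries, 321, 336 and 323 CPM in Esrrb libraries and 49.0, 36.7 and 45.9 CPM in Nanog-null libraries. The gap between the Nanog-null libraries and the others was far wider than the spread within any line. Jam2 rose by a log2 fold change of 2.90 ± 0.10 in the Esrrb line (adjusted p = 4.74e-09) and 3.02 ± 0.10 in the Esrrb+Nanog line (adjusted p = 2.66e-09), each against the Nanog-null line. It was not called between the Esrrb+Nanog line and the Esrrb line (0.12 ± 0.09, adjusted p = 0.453).

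F11r (ENSMUSG00000038235, chr1:171437535-171464603, plus strand), which encodes a tight junction protein of epithelia, was at 29.5, 34.9 and 35.6 CPM in Esrrb+Nanog libraries, 33.8, 36.0 and 35.0 CPM in Esrrb libraries and 51.0, 58.5 and 55.2 CPM in Nanog-null libraries. The lines with added genes overlapped each other and lay below every Nanog-null library. F11r fell by 0.65 ± 0.08 on the log2 scale in the Esrrb line (adjusted p = 7.1e-05) and by 0.72 ± 0.08 in the Esrrb+Nanog line (adjusted p = 2.62e-05), each against the Nanog-null line, and the Esrrb+Nanog line differed from the Esrrb line by -0.07 ± 0.09 (adjusted p = 0.655). Per kilobase of exon, the ratio of Jam2 to F11r was 4.81, 4.53 and 4.75 in Esrrb+Nanog libraries, 4.18, 4.12 and 4.06 in Esrrb libraries and 0.423, 0.277 and 0.366 in Nanog-null libraries. Jam2 was thus the higher of the pair in every library with added genes and the lower in every Nanog-null library. The mean log2 ratio was higher by 3.56 in the Esrrb line than in the Nanog-null line, by 0.19 in the Esrrb+Nanog line than in the Esrrb line and by 3.75 in the Esrrb+Nanog line than in the Nanog-null line. Each gave p = 0.1 in a two-sided exact permutation test of 3 against 3 libraries, the smallest p this design allows (0.129 adjusted over 9 ratio comparisons).

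Epcam (ENSMUSG00000045394, chr17:87635979-87651129, plus strand), which encodes the epithelial cell adhesion molecule, was at 55.8, 60.5 and 76.1 CPM in Esrrb+Nanog libraries, 85.9, 61.1 and 102.8 CPM in Esrrb libraries and 230.0, 241.5 and 220.3 CPM in Nanog-null libraries. Every Nanog-null library held more than the highest of the other 6, and the Esrrb+Nanog and Esrrb libraries overlapped. Epcam fell by 1.47 ± 0.16 on the log2 scale in the Esrrb line (adjusted p = 1.96e-05) and by 1.85 ± 0.16 in the Esrrb+Nanog line (adjusted p = 2.92e-06), each against the Nanog-null line. The value between the Esrrb+Nanog line and the Esrrb line was -0.375 ± 0.16 (adjusted p = 0.15). It was -0.56 without Esrrb replicate 2 (adjusted p = 0.00908), and the adjusted p with no low-count filter was 8.66e-05.

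The cadherins did not move as 1 group. Cdh1 (ENSMUSG00000000303, chr8:106603351-106670246, plus strand), the E-cadherin gene, was at 152.8, 164.7 and 168.0 CPM in Esrrb+Nanog libraries, 234.1, 196.4 and 207.2 CPM in Esrrb libraries and 409.6, 435.7 and 408.0 CPM in Nanog-null libraries. The 3 lines did not overlap, with the Esrrb+Nanog libraries lowest and the Nanog-null libraries highest. Cdh1 fell by 0.97 ± 0.07 on the log2 scale in Esrrb over Nanog-null cells (adjusted p = 1.15e-06), by 0.39 ± 0.07 in Esrrb+Nanog over Esrrb cells (adjusted p = 0.00433) and by 1.37 ± 0.07 in Esrrb+Nanog over Nanog-null cells (adjusted p = 7.13e-08).

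Cdh3 (ENSMUSG00000061048, chr8:106510891-106557297, plus strand), the P-cadherin gene, lies near Cdh1 on the same chromosome. It was at 40.1, 41.7 and 38.8 CPM in Esrrb+Nanog libraries, 16.8, 10.4 and 15.4 CPM in Esrrb libraries and 48.1, 50.7 and 53.6 CPM in Nanog-null libraries. The Esrrb libraries stood below all others, and the Esrrb+Nanog libraries lay between them and the Nanog-null libraries. Cdh3 fell by 1.84 ± 0.14 on the log2 scale in Esrrb over Nanog-null cells (adjusted p = 1.53e-06) and rose by 1.51 ± 0.14 in Esrrb+Nanog over Esrrb cells (adjusted p = 6.47e-05). Between the Esrrb+Nanog line and the Nanog-null line the log2 fold change was -0.34 ± 0.13 (adjusted p = 0.0468). That last call ended with library totals in place of TMM factors (adjusted p = 0.0688), without any 1 Esrrb+Nanog library (0.0796 to 0.121), without Nanog-null replicate 2 (0.0821) and without Nanog-null replicate 3 (0.125).

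Cdh2 (ENSMUSG00000024304, chr18:16588877-16809246, minus strand), the N-cadherin gene of neural and mesenchymal cells, was low throughout. It was at 8.71, 7.56 and 8.89 CPM in Esrrb+Nanog libraries, 6.36, 6.45 and 6.53 CPM in Esrrb libraries and 8.02, 12.17 and 7.79 CPM in Nanog-null libraries. Nanog-null replicate 2 stood above its partners, which fell within the Esrrb+Nanog range. The log2 fold change of Esrrb over Nanog-null cells was -0.53 ± 0.17 (adjusted p = 0.0197), and the call ended without Nanog-null replicate 2 (-0.31, adjusted p = 0.0762) or without Esrrb replicate 1 (adjusted p = 0.0572). Cdh2 was not called in Esrrb+Nanog over Esrrb cells (0.38 ± 0.17, adjusted p = 0.163, and 0.0474 without Nanog-null replicate 2) or against the Nanog-null line (-0.15 ± 0.16, adjusted p = 0.46, and a log2 fold change of 0.08 without Nanog-null replicate 2). Non-overlap between groups of 3 libraries held for all 10 adhesion genes in Esrrb over Nanog-null cells, for 3 in Esrrb+Nanog over Esrrb cells and for 9 in Esrrb+Nanog over Nanog-null cells, beside 58.4%, 31.6% and 61.9% of all tested genes.

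Per kilobase of exon (RPKM), Cdh1 made up most of the summed level of the 3 cadherins in every library. Its share was 76.6%, 77.5% and 78.7% in Esrrb+Nanog libraries, 91.7%, 93.1% and 91.3% in Esrrb libraries and 88.2%, 87.9% and 87.1% in Nanog-null libraries. The share of Cdh3 was 20.9%, 20.5% and 18.9% in Esrrb+Nanog libraries, 6.88%, 5.12% and 7.06% in Esrrb libraries and 10.8%, 10.7% and 11.9% in Nanog-null libraries. Cdh2 made up at most 2.48% in Esrrb+Nanog, 1.73% in Esrrb and 1.39% in Nanog-null libraries. The ratio of Cdh1 to Cdh2 was 30.9, 38.4 and 33.3 in Esrrb+Nanog libraries, 64.9, 53.7 and 55.95 in Esrrb libraries and 90.1, 63.1 and 92.3 in Nanog-null libraries. In log2, the ratio was lower by 0.77 in the Esrrb+Nanog line than in the Esrrb line and by 1.24 than in the Nanog-null line (p = 0.1 each, exact permutation test, the smallest possible; adjusted p = 0.129), and the Esrrb line differed from the Nanog-null line by -0.48 (p = 0.2, exact permutation test; adjusted p = 0.225).

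**Figure D2:**
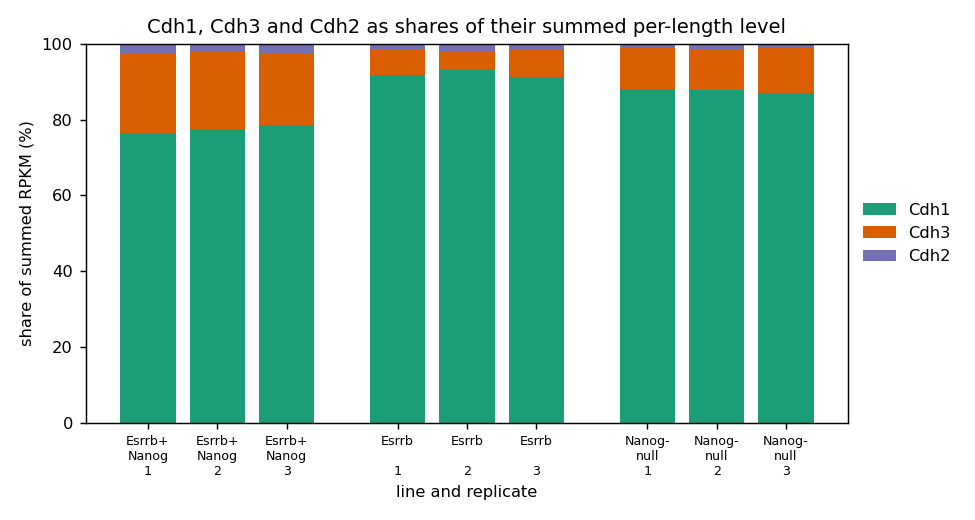
Share of the summed RPKM of Cdh1, Cdh3 and Cdh2 held by each gene (stacked bars, percent) in each library of the Esrrb+Nanog, Esrrb and Nanog-null lines. Cdh3 holds 18.9% to 20.9% in the Esrrb+Nanog libraries, 5.12% to 7.06% in the Esrrb libraries and 10.7% to 11.9% in the Nanog-null libraries.

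Both claudins, the membrane proteins that seal tight junctions, were lower in the lines with added genes, and Cldn6 had the largest fall of the 10 in both comparisons with the Nanog-null line. Cldn6 (ENSMUSG00000023906, chr17:23679249-23682446, plus strand) was at 8.05, 8.004 and 6.76 CPM in Esrrb+Nanog libraries, 7.46, 6.48 and 6.34 CPM in Esrrb libraries and 55.2, 74.2 and 58.2 CPM in Nanog-null libraries. The lines with added genes overlapped each other and lay far below the Nanog-null libraries. Cldn6 fell by 3.21 ± 0.13 on the log2 scale in the Esrrb line (adjusted p = 1.24e-08) and by 3.04 ± 0.13 in the Esrrb+Nanog line (adjusted p = 1.22e-08), each against the Nanog-null line, and was not called between the Esrrb+Nanog line and the Esrrb line (0.17 ± 0.14, adjusted p = 0.474).

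Cldn4 (ENSMUSG00000047501, chr5:134945119-134946934, minus strand) was at 52.3, 47.2 and 37.4 CPM in Esrrb+Nanog libraries, 49.6, 42.6 and 35.2 CPM in Esrrb libraries and 104.5, 125.7 and 113.7 CPM in Nanog-null libraries. Here too the Nanog-null libraries stood above all others without overlap. It fell by 1.43 ± 0.14 on the log2 scale in the Esrrb line (adjusted p = 7.71e-06) and by 1.33 ± 0.14 in the Esrrb+Nanog line (adjusted p = 9.42e-06), each against the Nanog-null line, and was not called between the Esrrb+Nanog line and the Esrrb line (0.10 ± 0.14, adjusted p = 0.676). Per kilobase, the ratio of Cldn6 to Cldn4 was 0.162, 0.179 and 0.191 in Esrrb+Nanog libraries, 0.159, 0.161 and 0.190 in Esrrb libraries and 0.557, 0.623 and 0.541 in Nanog-null libraries. Its log2 value was lower by 1.76 in the Esrrb line and by 1.69 in the Esrrb+Nanog line than in the Nanog-null line (p = 0.1 each, exact permutation test, the smallest possible; adjusted p = 0.129), and the Esrrb+Nanog line differed from the Esrrb line by 0.06 (p = 0.5, exact permutation test).

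Claudin genes sit beside both. Cldn9 lies 138 bases from Cldn6 and averaged 0.804 ± 0.18 CPM in Esrrb+Nanog, 0.753 ± 0.14 CPM in Esrrb and 1.62 ± 0.33 CPM in Nanog-null libraries (SD, n = 3 each). Cldn3 lies 39280 bases from Cldn4 and averaged 1.27 ± 0.27 CPM in Esrrb+Nanog, 0.824 ± 0.23 CPM in Esrrb and 6.11 ± 2.06 CPM in Nanog-null libraries. Both fell in Esrrb over Nanog-null cells, Cldn3 by 2.88 on the log2 scale (adjusted p = 1.3e-05) and Cldn9 by 1.11 (adjusted p = 0.00364). Icam4, 556 bases from Icam1, had 0 counts in all 9 libraries.

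**Figure D3:**
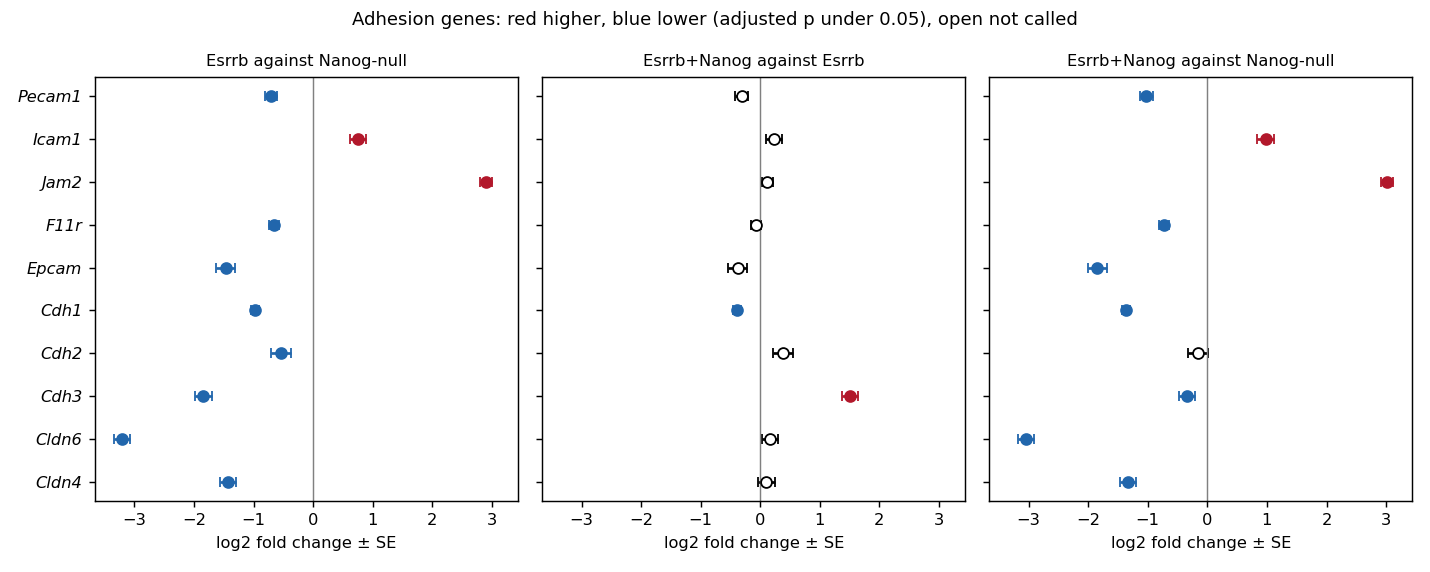
Log2 fold change ± SE of the 10 adhesion genes in 3 comparisons, with filled red points called higher, filled blue points called lower and open points not called. Against the Nanog-null line, Jam2 stands at 2.90 and 3.02 and Cldn6 at -3.21 and -3.04, and between the Esrrb+Nanog and Esrrb lines Cdh3 (1.51) and Cdh1 (-0.39) are the filled points.

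Keratins and other trophoblast markers were also higher in the Nanog-null line, where Epcam, Cdh1, Cdh3, Cldn6 and Cldn4 were high. Their sum over 8 markers was 52.4, 54.2 and 47.8 CPM in Esrrb+Nanog libraries, 41.4, 60.7 and 35.3 CPM in Esrrb libraries and 99.6, 248.1 and 143.8 CPM in Nanog-null libraries. Of 7 tested, 5 were lower and none was higher in the Esrrb+Nanog line, and 6 were lower and none higher in the Esrrb line, each against the Nanog-null line. Of all tested genes, 27.2% and 24.2% were lower in these comparisons, in that order. Of the transcription factors on the list, Tfap2c averaged 19.4 ± 3.2 CPM in Esrrb+Nanog, 21.8 ± 11 CPM in Esrrb and 50.2 ± 5.4 CPM in Nanog-null libraries, and Gata3 averaged 0.878 ± 0.21 CPM in Esrrb+Nanog, 1.94 ± 0.55 CPM in Esrrb and 3.67 ± 1.33 CPM in Nanog-null libraries. Both were lower in each line with added genes than in the Nanog-null line. Eomes averaged 9.26 ± 0.45 CPM in Esrrb+Nanog, 7.64 ± 0.75 CPM in Esrrb and 8.22 ± 1.03 CPM in Nanog-null libraries and was not called. Cdx2 was at no more than 1.00 CPM and Elf5 at no more than 3 counts in any library. Fibroblast markers summed to 86.6 CPM in Nanog-null replicate 2 and to 16.3 and 28.5 CPM in its partners, against 11.5 to 18.5 CPM in Esrrb+Nanog and 10.4 to 18.9 CPM in Esrrb libraries. Thy1 made up much of the sum in the lines with added genes (9.24 ± 3.0 CPM in Esrrb+Nanog, 8.96 ± 3.2 CPM in Esrrb and 2.27 ± 0.20 CPM in Nanog-null libraries). Acta2 was at no more than 0.105 CPM in Esrrb+Nanog and 0.094 CPM in Esrrb libraries, against 7.69, 54.3 and 16.1 CPM in Nanog-null libraries. Col1a2 was at no more than 0.245 CPM in Esrrb+Nanog and 0.311 CPM in Esrrb libraries, against 2.41, 16.8 and 4.42 CPM in Nanog-null libraries, so both were higher in every Nanog-null library. Leukocyte markers (1 of 6 tested, Adgre1 at 0 throughout) summed to 1.79 to 2.70 CPM in Esrrb+Nanog, 2.49 to 3.73 CPM in Esrrb and 1.96 to 2.84 CPM in Nanog-null libraries. Primitive endoderm markers summed to 405.6 to 481.5 CPM in Esrrb+Nanog, 233.9 to 359.9 CPM in Esrrb and 58.9 to 185.2 CPM in Nanog-null libraries, mostly from the basement membrane genes Lama1 and Col4a1. Lama1 averaged 356 ± 42 CPM in Esrrb+Nanog, 136.2 ± 41 CPM in Esrrb and 43.6 ± 18 CPM in Nanog-null libraries. Of 8 tested genes of the list, 5 were higher and 1 lower in Esrrb over Nanog-null cells (median 1.398), beside 24.2% of all genes in each direction. There Pdgfra rose by 2.16 ± 0.52 on the log2 scale (adjusted p = 0.00474). In Esrrb+Nanog over Nanog-null cells 2 were higher and 1 lower (median 0.31), beside 27.2% in each direction. Most other genes of the list did not follow the rise of Lama1 from the Esrrb line to the Esrrb+Nanog line. Of 8 tested in Esrrb+Nanog over Esrrb cells, Lama1 was higher and 3 were lower (Gata6, Pdgfra and Dab2, median log2 fold change of the list -0.95). There 5.43% of all tested genes were higher and 7.75% lower. The call of Pdgfra there (-1.85, adjusted p = 0.0337) was lost with DESeq2 (0.0853) and without any 1 Esrrb+Nanog library (0.0637 to 0.0966). It was also lost without Esrrb replicate 2 (0.0506) or 3 (0.106) or Nanog-null replicate 3 (0.0528). Gata6 averaged 6.90 ± 3.5 CPM in Esrrb+Nanog, 25.2 ± 13 CPM in Esrrb and 3.66 ± 2.4 CPM in Nanog-null libraries. Without Nanog-null replicate 2, the library with the highest trophoblast sum, the log2 fold changes of Esrrb over Nanog-null cells were -1.45 for Epcam, -0.96 for Cdh1, -1.86 for Cdh3, -3.08 for Cldn6 and -1.38 for Cldn4, all still called. The part of these markers in the adhesion results within the remaining libraries was not tested.

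RefSeq promoter windows were at hand for 5 of the 10 genes (F11r, Icam1, Epcam, Cldn6 and Cldn4). Shown here are the 250 bases before the RefSeq start of 3 genes that fell together, Epcam, Cldn6 and Cldn4, and of Icam1, which rose (RefSeq, GRCm38.p6, printed 5′ to 3′ on the gene's strand). Capitals mark CAGGTG, an E-box core of the kind bound by Zeb and Snail repressors, and GGGCGG, the GC box of Sp factors, each in either orientation (CACCTG and CCGCCC on the other strand).
Epcam (chr17:87635729-87635978, plus): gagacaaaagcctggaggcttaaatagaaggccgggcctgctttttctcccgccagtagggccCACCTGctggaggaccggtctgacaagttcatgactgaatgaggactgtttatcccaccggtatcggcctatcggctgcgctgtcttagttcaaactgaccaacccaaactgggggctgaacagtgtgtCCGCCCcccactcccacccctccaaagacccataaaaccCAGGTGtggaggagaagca
Cldn6 (chr17:23679115-23679364, plus): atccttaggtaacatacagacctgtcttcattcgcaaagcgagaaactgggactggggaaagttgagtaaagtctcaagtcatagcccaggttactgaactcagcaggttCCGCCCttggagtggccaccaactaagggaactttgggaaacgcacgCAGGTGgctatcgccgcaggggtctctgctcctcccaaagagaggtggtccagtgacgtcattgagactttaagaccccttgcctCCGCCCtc
Cldn4 (chr5:134946935-134947184, minus): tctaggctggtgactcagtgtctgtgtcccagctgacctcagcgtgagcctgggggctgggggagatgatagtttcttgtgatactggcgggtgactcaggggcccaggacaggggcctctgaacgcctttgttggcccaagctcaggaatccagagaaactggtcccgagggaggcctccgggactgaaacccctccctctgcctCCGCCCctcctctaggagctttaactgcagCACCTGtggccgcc
Icam1 (chr9:21015690-21015939, plus): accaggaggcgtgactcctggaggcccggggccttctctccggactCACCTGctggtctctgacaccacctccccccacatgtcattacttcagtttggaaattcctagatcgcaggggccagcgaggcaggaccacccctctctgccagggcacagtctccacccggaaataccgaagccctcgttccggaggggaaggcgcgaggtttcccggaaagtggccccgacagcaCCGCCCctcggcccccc
All 5 windows held CAGGTG, which was in 17.2% of 32851 RefSeq windows of this length, and all 5 held GGGCGG, which was in 32.7%. The share of G and C in the 5 ran from 53.6% (Cldn6) to 65.2% (Icam1). The 32851 windows were not matched to them in this share, so enrichment was not tested. Relative to the RefSeq start, CAGGTG began at -187 and -19 in Epcam, -93 in Cldn6, -14 in Cldn4, -122 in F11r and -204 in Icam1. Icam1, which rose, and the other 4, which fell, held both motifs. Neither AAGGTCA, the core bound by Esrrb (in 4.08% of windows), nor its longer form TCAAGGTCA, which contains it (0.387%), nor TATAAA (12.4%) was found in the 5 windows on either strand. A match in letters is a description and not a bound site.

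The order of the 10 genes by RPKM differed between the lines at its head. In the Esrrb+Nanog line Jam2 came first at 58.7 ± 5.1 RPKM (SD, n = 3), before Cdh1 (35.4 ± 1.8), Epcam (29.2 ± 4.8), Cldn4 (25.1 ± 4.2), Icam1 (17.2 ± 0.56), F11r (12.5 ± 1.3), Cdh3 (9.17 ± 0.33), Pecam1 (7.99 ± 0.64), Cldn6 (4.42 ± 0.43) and Cdh2 (1.04 ± 0.089). The Esrrb line also began with Jam2 at 54.0 ± 1.4 RPKM, followed by Cdh1 (46.5 ± 4.2), Epcam (37.9 ± 9.6), Cldn4 (23.4 ± 4.0), Icam1 (14.6 ± 3.6), F11r (13.1 ± 0.41), Pecam1 (9.93 ± 1.4), Cldn6 (3.93 ± 0.36), Cdh3 (3.24 ± 0.77) and Cdh2 (0.799 ± 0.011). The Nanog-null line began with Epcam at 105 ± 4.9 RPKM, then Cdh1 (91.3 ± 3.4), Cldn4 (63.1 ± 5.8), Cldn6 (36.3 ± 5.9), F11r (20.6 ± 1.4), Pecam1 (16.2 ± 1.4), Cdh3 (11.6 ± 0.63), Icam1 (8.71 ± 0.68), Jam2 (7.26 ± 1.1) and Cdh2 (1.16 ± 0.31). Jam2 was thus first in both lines with added genes and ninth in the Nanog-null line, and Cdh2 was last in each. Of the 9 pairs of neighbours in an order, library values overlapped in 2 in the Esrrb+Nanog line (Cdh1 with Epcam, and Epcam with Cldn4), in 3 in the Esrrb line (Cdh1 with Epcam, Icam1 with F11r, and Cldn6 with Cdh3) and in 1 in the Nanog-null line (Icam1 with Jam2). These ranks and overlaps hold for the length of all exons joined. Pecam1 has 6228 such bases but 3441 in its longest coding transcript, and Icam1 has 4360 and 2535. Ranks can therefore change with the length used, and the order was not computed with another length.

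**Figure D4:**
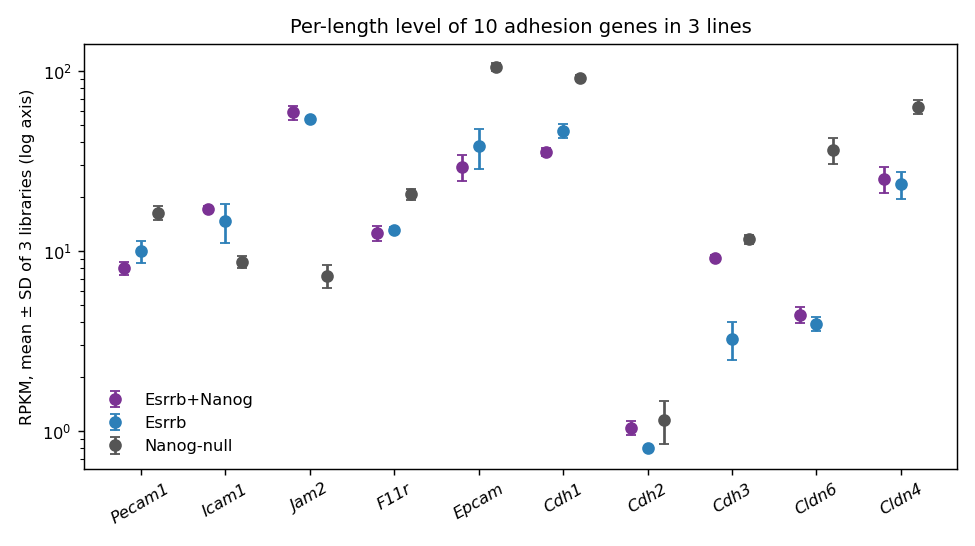
RPKM (log axis) of the 10 adhesion genes as mean ± SD of 3 libraries in the Esrrb+Nanog, Esrrb and Nanog-null lines. Jam2 is at 58.7 and 54.0 RPKM in the lines with added genes and at 7.26 in the Nanog-null line, and Epcam is at 29.2, 37.9 and 105 RPKM in the 3 lines.

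Other genes of adhesion were read from 7 lists. In the tight junction list every call against the Nanog-null line was a fall. Of 13 tested genes of 14 listed, 9 were lower and none higher in Esrrb over Nanog-null cells, where 24.2% of all genes were lower. The median log2 fold change was -1.006, beside 0.0063 for all genes. In Esrrb+Nanog over Nanog-null cells 9 were lower and none higher (median -1.008), beside 27.2% of all genes lower. None of the 13 was called between the Esrrb+Nanog line and the Esrrb line by edgeR or DESeq2, where edgeR called 13.2% of all genes (1, Ocln, at an unadjusted p under 0.05, and 1 by edgeR without Esrrb replicate 2). Both counts of 9 were the same without Nanog-null replicate 2. The claudin gene Cldn7 averaged 2.63 ± 0.38 CPM in Esrrb+Nanog, 2.12 ± 0.27 CPM in Esrrb and 20.5 ± 4.7 CPM in Nanog-null libraries and fell by 3.28 on the log2 scale in Esrrb over Nanog-null cells (adjusted p = 2.27e-07). Cgn, which encodes cingulin of the junction's inner face, averaged 33.2 ± 4.4 CPM in Esrrb+Nanog, 35.5 ± 1.8 CPM in Esrrb and 71.3 ± 6.3 CPM in Nanog-null libraries (log2 fold change -1.01, adjusted p = 8.62e-06, in Esrrb over Nanog-null cells). Occludin, encoded by Ocln, averaged 1.90 ± 0.047 CPM in Esrrb+Nanog, 2.86 ± 1.07 CPM in Esrrb and 9.58 ± 0.77 CPM in Nanog-null libraries and fell by 1.75 on the log2 scale in Esrrb over Nanog-null cells (adjusted p = 4.63e-05).

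Regulators of the epithelial and mesenchymal states moved both ways. Of 10 tested (11 listed), 3 were higher and 5 lower in the Esrrb line, and 3 higher and 5 lower in the Esrrb+Nanog line, each against the Nanog-null line (median log2 fold changes -0.244 and -0.355), and without Nanog-null replicate 2 the lower ones were 4 in each. Of all genes, 24.2% were called in each direction in the first comparison and 27.2% in each direction in the second. Esrp1, an RNA-binding protein of epithelial splicing, averaged 3.44 ± 1.24 CPM in Esrrb+Nanog, 3.59 ± 1.32 CPM in Esrrb and 85.3 ± 5.9 CPM in Nanog-null libraries, and fell by 4.59 ± 0.23 on the log2 scale in Esrrb over Nanog-null cells (adjusted p = 7.24e-08). Grhl2, a transcription factor of epithelial genes, averaged 5.85 ± 2.69 CPM in Esrrb+Nanog, 12.6 ± 4.6 CPM in Esrrb and 95.3 ± 4.1 CPM in Nanog-null libraries. Its relative Grhl3 went the other way, at 35.2 ± 4.4 CPM in Esrrb+Nanog, 46.6 ± 6.3 CPM in Esrrb and 14.4 ± 1.2 CPM in Nanog-null libraries. Zeb1, a zinc finger repressor of Cdh1, averaged 33.9 ± 0.21 CPM in Esrrb+Nanog, 39.0 ± 1.6 CPM in Esrrb and 17.7 ± 0.67 CPM in Nanog-null libraries. It rose by 1.14 ± 0.07 on the log2 scale in Esrrb over Nanog-null cells (adjusted p = 3.28e-07). The other Zeb and Snail genes of the list (named after their values were seen) did not all go the same way. Zeb2 averaged 2.14 ± 0.44 CPM in Esrrb and 4.47 ± 1.59 CPM in Nanog-null libraries. In the same order, Snai1 averaged 6.64 ± 0.87 and 6.88 ± 0.64 CPM, and Snai2 1.58 ± 0.35 and 0.784 ± 0.088 CPM. In Esrrb+Nanog over Esrrb cells, where 5.43% of all genes were higher and 7.75% lower, 1 of the 10 was higher and 2 were lower (median -0.201). The lower ones were Grhl2 by 1.09 (adjusted p = 0.0354) and Grhl3 by 0.41 (adjusted p = 0.0383). Neither fall was called without Esrrb+Nanog replicate 1 or Esrrb replicate 3 (adjusted p from 0.0777 to 0.12) or without Nanog-null replicate 3 (0.054 for Grhl2 and 0.0558 for Grhl3). Grhl2 was also not called without Esrrb+Nanog replicate 2 (0.12) or Esrrb replicate 1 (0.118), nor Grhl3 without Esrrb+Nanog replicate 3 (0.13), Esrrb replicate 2 (0.101) or Nanog-null replicate 1 (0.0547). The 1 higher gene, Zeb2 (named after its value was seen), was called without Nanog-null replicate 1 or 2 but not without any other single library.

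Genes for proteins that bind or cleave EpCAM were called in both directions. Against the Nanog-null line, the shares called were near those of all genes (48.5% for the Esrrb line and 54.4% for the Esrrb+Nanog line). In Esrrb+Nanog over Esrrb cells, 5.43% of all genes were higher and 7.75% lower. Of 10 genes, all tested, 1 was higher and 5 were lower in Esrrb over Nanog-null cells (median -0.259, 4 lower without Nanog-null replicate 2), 5 were higher and 1 was lower in Esrrb+Nanog over Esrrb cells (median 0.281), and 3 were higher and 3 lower in Esrrb+Nanog over Nanog-null cells (median -0.138, 2 lower without Nanog-null replicate 2). The 5 higher genes were Cd9, Spint1, Spint2, St14 and Adam10, and the lower one Tspan8 (Adam10 and Tspan8 named after their values were seen). The higher genes were 3 without Esrrb+Nanog replicate 2 and 2 without Esrrb replicate 1. Tspan8 (-1.83, adjusted p = 0.0334) was not called without any 1 Esrrb+Nanog library, Esrrb replicate 1 or 3, or Nanog-null replicate 3. St14, which encodes the EpCAM-cleaving protease matriptase, averaged 35.8 ± 3.2 CPM in Esrrb+Nanog, 24.1 ± 4.2 CPM in Esrrb and 57.6 ± 7.9 CPM in Nanog-null libraries (log2 fold change -1.26, adjusted p = 1.35e-05, in Esrrb over Nanog-null cells). Its inhibitors Spint1 and Spint2 rose in Esrrb+Nanog over Esrrb cells. Spint1 averaged 75.6 ± 9.0 CPM in Esrrb+Nanog, 42.5 ± 6.2 CPM in Esrrb and 37.0 ± 4.0 CPM in Nanog-null libraries (adjusted p = 0.00111 for Esrrb+Nanog over Esrrb cells). Spint2 averaged 151.1 ± 14 CPM in Esrrb+Nanog, 92.8 ± 3.2 CPM in Esrrb and 128 ± 9.7 CPM in Nanog-null libraries (adjusted p = 0.000213). The tetraspanin gene Cd9 averaged 173.1 ± 7.1 CPM in Esrrb+Nanog, 144.5 ± 8.6 CPM in Esrrb and 94.4 ± 1.9 CPM in Nanog-null libraries and rose by 0.61 on the log2 scale in Esrrb over Nanog-null cells (adjusted p = 1e-05).

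For catenins and other cytoplasmic partners of cadherins too, the shares called in Esrrb over Nanog-null and Esrrb+Nanog over Esrrb cells were near those of all genes (48.5% and 13.2%). Of 9 tested (10 listed), 3 were higher and 2 lower in Esrrb over Nanog-null cells (median 0.185), and none was higher and 1 lower in Esrrb+Nanog over Esrrb cells (median 0.021). In Esrrb+Nanog over Nanog-null cells, where 54.4% of all genes were called, 5 were higher and 3 lower (median 0.304, 2 lower without Nanog-null replicate 2). Jup, the plakoglobin gene, averaged 304.6 ± 10.4 CPM in Esrrb+Nanog, 325.7 ± 37.6 CPM in Esrrb and 159.1 ± 19.5 CPM in Nanog-null libraries and rose by 1.03 ± 0.10 on the log2 scale in Esrrb over Nanog-null cells (adjusted p = 6.91e-06), while Cdh1 fell. Vcl, the vinculin gene, averaged 102.3 ± 0.79 CPM in Esrrb+Nanog, 100.8 ± 4.1 CPM in Esrrb and 127.2 ± 11.8 CPM in Nanog-null libraries (log2 fold change -0.34, adjusted p = 0.00188, in Esrrb over Nanog-null cells). Afdn, whose product afadin ties nectins to actin, fell by 0.60 on the log2 scale in Esrrb+Nanog over Nanog-null cells (adjusted p = 0.000112), and the catenin relative Arvcf fell by 0.42 in Esrrb+Nanog over Esrrb cells (adjusted p = 0.00867). Pkp4 was not called there (0.23, adjusted p = 0.0536). Without Esrrb+Nanog replicate 1 or Esrrb replicate 2, 2 were higher and 2 lower in that comparison.

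Among other immunoglobulin superfamily genes, the shares called were near those of all genes in Esrrb over Nanog-null (48.5%) and Esrrb+Nanog over Esrrb cells (13.2%), so the counts say little of the list. Of 12 tested (14 listed), 4 were higher and 3 lower in Esrrb over Nanog-null cells (median 0.096), and 1 was higher and 1 lower in Esrrb+Nanog over Esrrb cells (median 0.215). In Esrrb+Nanog over Nanog-null cells, where 54.4% of all genes were called, 5 were higher and 4 lower (median 0.251, 6 higher without Nanog-null replicate 2). Mcam, the CD146 gene, averaged 91.6 ± 23 CPM in Esrrb+Nanog, 66.5 ± 5.0 CPM in Esrrb and 13.4 ± 1.6 CPM in Nanog-null libraries and rose by 2.32 ± 0.17 on the log2 scale in Esrrb over Nanog-null cells (adjusted p = 1.03e-06). Ncam1, the neural cell adhesion molecule, averaged 25.0 ± 4.8 CPM in Esrrb+Nanog, 6.48 ± 1.01 CPM in Esrrb and 3.54 ± 0.97 CPM in Nanog-null libraries and rose by 1.95 ± 0.19 on the log2 scale in Esrrb+Nanog over Esrrb cells (adjusted p = 9.01e-05). Cadm1, a synaptic and epithelial adhesion gene, averaged 43.1 ± 4.0 CPM in Esrrb+Nanog, 48.5 ± 6.6 CPM in Esrrb and 88.9 ± 5.0 CPM in Nanog-null libraries and fell by 0.87 on the log2 scale in Esrrb over Nanog-null cells (adjusted p = 3.08e-05). In Esrrb+Nanog over Esrrb cells, the higher genes were 3 without Esrrb+Nanog replicate 1 and 2 without Esrrb replicate 2. Cxadr, a virus receptor at tight junctions, fell by 0.37 in Esrrb+Nanog over Esrrb cells (adjusted p = 0.0217), a call that ended without Esrrb+Nanog replicate 2 (0.0903), Esrrb replicate 1 (0.0919) or Esrrb replicate 3 (0.0712).

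Desmosome genes and further cadherins formed 2 small lists. Of all genes, 24.2% were called in each direction in Esrrb over Nanog-null cells and 27.2% in each direction in Esrrb+Nanog over Nanog-null cells. In Esrrb+Nanog over Esrrb cells, 5.43% of all genes were higher and 7.75% lower. Of 6 tested desmosome genes (7 listed), none was higher and 1 lower in Esrrb over Nanog-null cells (median -0.035), 2 (Dsp and Pkp3) were higher and none lower in Esrrb+Nanog over Esrrb cells (median 0.24, beside 5.43% of all genes called higher), and 1 (Pkp3) was higher and 1 (Dsp) lower in Esrrb+Nanog over Nanog-null cells (median -0.039). The call of Pkp3 over Nanog-null cells (0.55, adjusted p = 0.0389) was lost without Esrrb+Nanog replicate 1 (0.0784) or 2 (0.135) or Nanog-null replicate 1 (0.153) or 3 (0.108). In Esrrb over Nanog-null cells 2 were lower without Esrrb replicate 2 or Nanog-null replicate 1. Dsp, the desmoplakin gene, averaged 15.1 ± 3.0 CPM in Esrrb+Nanog, 6.27 ± 1.23 CPM in Esrrb and 40.2 ± 20 CPM in Nanog-null libraries. It fell by 2.69 on the log2 scale in the Esrrb line (adjusted p = 2.9e-05) and by 1.41 in the Esrrb+Nanog line (0.93 without Nanog-null replicate 2), each against the Nanog-null line. Its rise in Esrrb+Nanog over Esrrb cells (1.28, adjusted p = 0.0196) was not called without Esrrb+Nanog replicate 3 (0.0684) or Esrrb replicate 1 (0.064). Pkp3, the plakophilin 3 gene, rose by 1.05 in Esrrb+Nanog over Esrrb cells (adjusted p = 0.00679). Of 6 tested cadherins (8 listed), 1 was higher and 1 lower in Esrrb over Nanog-null cells (median 0.262), none was called in Esrrb+Nanog over Esrrb cells by edgeR or DESeq2 (median 0.071, 2 at an unadjusted p under 0.05), and none was higher and 1 lower in Esrrb+Nanog over Nanog-null cells (median 0.184). Without Nanog-null replicate 2, 2 were higher in Esrrb over Nanog-null cells, 1 was lower in Esrrb+Nanog over Esrrb cells, and 1 was higher and none lower in Esrrb+Nanog over Nanog-null cells. Cdh13 averaged 0.885 ± 0.31 CPM in Esrrb+Nanog, 0.506 ± 0.046 CPM in Esrrb and 1.83 ± 0.82 CPM in Nanog-null libraries, and its fall in Esrrb+Nanog over Nanog-null cells (-1.04, adjusted p = 0.0201) was not called without Nanog-null replicate 2 (-0.62, adjusted p = 0.111) or Esrrb+Nanog replicate 2 (adjusted p = 0.0822). Cdh4 averaged 5.46 ± 0.40 CPM in Esrrb+Nanog, 6.53 ± 1.14 CPM in Esrrb and 4.27 ± 0.96 CPM in Nanog-null libraries, and its rise in Esrrb over Nanog-null cells (0.61, adjusted p = 0.0168) ended without Esrrb replicate 1 or 3 or Nanog-null replicate 1 or 3 (adjusted p from 0.055 to 0.0933). The endothelial cadherin gene Cdh5 averaged 0.172 ± 0.046 CPM in Esrrb+Nanog, 0.571 ± 0.30 CPM in Esrrb and 0.243 ± 0.16 CPM in Nanog-null libraries.

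**Figure D5:**
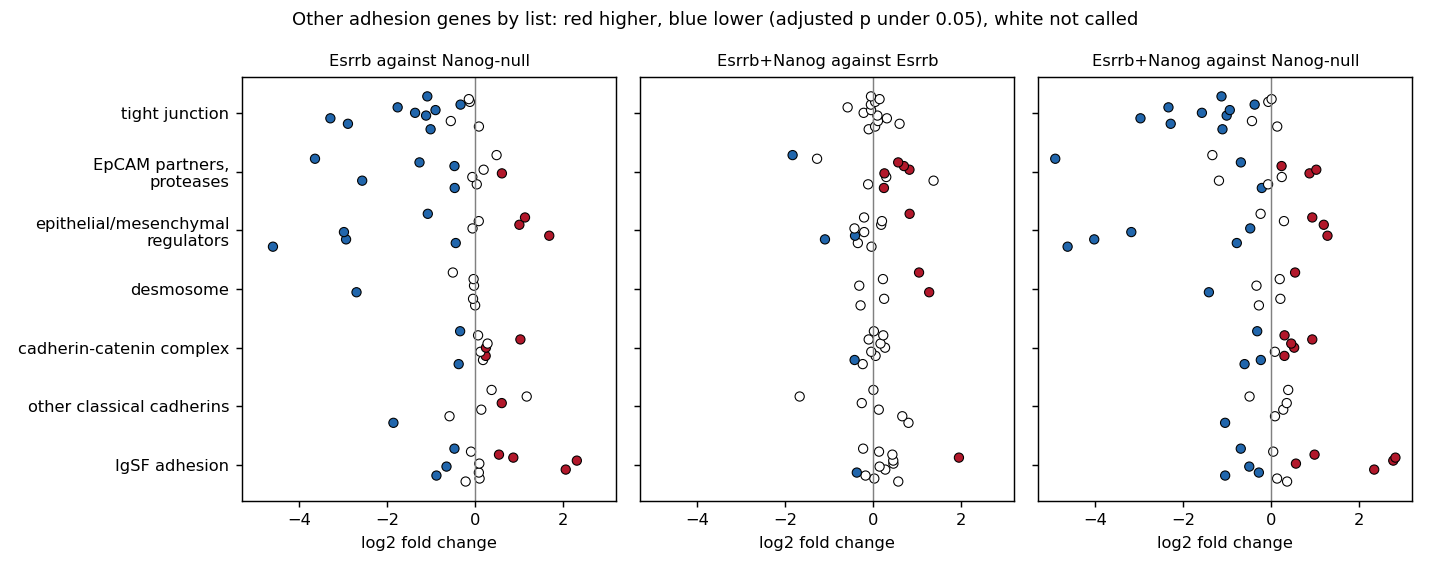
Log2 fold change of the tested genes of 7 adhesion lists (1 point per gene) in 3 comparisons, with red points called higher, blue points called lower and white points not called. In the tight junction list, 9 of 13 points are blue against the Nanog-null line in both lines with added genes and none is coloured between those lines, while the immunoglobulin superfamily and EpCAM lists hold both colours.

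Over the 9 libraries, the genes most like Pecam1 by Pearson correlation of log2 CPM among 10114 genes of at least 5 CPM were Spast (r = 0.9926, Spearman 0.967), Gnaq (0.9882, Spearman 0.95) and Nf2 (0.9882, Spearman 0.983). In proportion to their levels, their means differed less between lines than those of Pecam1 did. Nf2, the merlin gene, averaged 233.5 ± 5.0 CPM in Esrrb+Nanog, 259.3 ± 23 CPM in Esrrb and 311.8 ± 13 CPM in Nanog-null libraries. For Jam2 they were Zfp57 (0.998, Spearman 0.933), Sept1 (0.9973, Spearman 0.683) and Slc35e1 (0.997, Spearman 0.933). Zfp57, a zinc finger protein of imprinted regions, averaged 586.6 ± 47 CPM in Esrrb+Nanog, 568.3 ± 2.7 CPM in Esrrb and 107.2 ± 12 CPM in Nanog-null libraries. The 9 libraries form 3 lines, so these coefficients mostly describe the differences between lines, and they are descriptions with no test.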

How the data were processed

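The authors deposited whole-number read counts per Ensembl gene, unscaled, with 1 column per library, per the file headers and the values. RNA was depleted of ribosomal RNA and made into libraries with NEBNext kits, per the labels' protocols. Per the submitters' processing notes, bcl2fastq 2.19.1, STAR 2.5.3a and the build mm10 were used. The annotation, the strand setting and the counting tool: not given in the sources used here. Of 15 library columns, 9 matched the samples and 6 were not used.

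Symbols (52403 IDs), loci and exon lengths came from GENCODE M21. In R 4.3.3, edgeR 4.0.16 (with limma 3.58.1) kept 16198 genes by its default low-count rule, scaled libraries by TMM and fitted line as the only term to all 9 libraries. Quasi-likelihood p-values were Benjamini-Hochberg adjusted over all tested genes. An SE is the absolute log2 fold change over the square root of F. RPKM is CPM per kilobase of exon. The steps were tested on simulated data. Ratios had exact permutation tests. Named genes were the 10, Nanog, Esrrb and Pdgfra, the 2 members of each list with the smallest adjusted p per comparison, neighbouring cadherin, claudin or Icam genes, and the 3 genes most like Pecam1 and Jam2. Single markers of other cell types were named after their values were seen. Of the genes this rule names, 1 is not reported here. Ocln between the Esrrb and Nanog-null lines was given beside its named comparison. The genes and lists were chosen with earlier results of these data known. Alternatives were median-of-ratios factors, library totals alone, DESeq2 1.42.0, no low-count filter, a fit restricted to the lines compared, a stricter filter of 5 CPM in at least 3 libraries, the replicate block, a test against a 1.5-fold change, another transcript length for ratios, and each library left out. The same alternatives for the lists were added after the data were seen.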

Additional observations from a re-analysis of the deposited data

How the results depend on the processing

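No called value of the 10 genes changed direction in any alternative run. Of 170 alternative values per comparison, 164 kept their side of the threshold for Esrrb over Nanog-null cells, 161 for Esrrb+Nanog over Esrrb cells and 162 for Esrrb+Nanog over Nanog-null cells. By construction, a test of whether changes exceed 1.5-fold makes fewer calls, and it called 6 of the 10 and 2488 of all genes in Esrrb over Nanog-null cells, 1 and 233 in Esrrb+Nanog over Esrrb cells, and 3063 of all genes in Esrrb+Nanog over Nanog-null cells. With no low-count filter, 4 of the 10 were called in Esrrb+Nanog over Esrrb cells, and the cause was not tested. Leaving out 1 library at a time gave 9 to 10 called of the 10 and 6654 to 8263 of all genes in Esrrb over Nanog-null cells. It gave 2 to 5 and 1105 to 2374 in Esrrb+Nanog over Esrrb cells, and 8 to 9 and 7729 to 9123 in Esrrb+Nanog over Nanog-null cells. In Esrrb+Nanog over Esrrb cells, 1105 of all genes were called without Esrrb replicate 1, 1215 without Esrrb+Nanog replicate 2 and 1378 without Esrrb replicate 3. With library totals alone, the median of all genes in that comparison was 0.0589. With the replicate number as a replicate block, 10, 3 and 9 of the 10 were called in Esrrb over Nanog-null, Esrrb+Nanog over Esrrb and Esrrb+Nanog over Nanog-null cells, the added call being Pecam1 (edgeR, adjusted p = 0.0322). Same-numbered libraries correlated at -0.025 to 0.278 in their deviations from line means, and differently numbered ones at -0.329 to 0.224. With 3 libraries per line, these values cannot tell whether same-numbered libraries shared a batch or culture. Each ratio kept its direction without each library in turn. The longest coding transcript as length could not test this, since a length shifts a log2 ratio equally in all libraries. It changed only the level of a ratio. In the Esrrb+Nanog line, the mean log2 ratio of Cdh1 to Cdh2 was 5.091 by exon length and 4.4012 by that transcript length. Cdh2 had 559 to 722 counts summed per line, which limits its precision.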
